A study of Mus musculus with 2 samples.

Results

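The DNA replication and S-phase genes are 41 genes that copy the genome and bring a cell to the start of copying. They comprise the loading factors and core of the MCM helicase, its activators, the sliding clamp with its loader, the single-strand binding proteins, the polymerases, the enzymes that join Okazaki fragments, enzymes of deoxynucleotide supply, E2F1 with both E cyclins, and factors that rebuild chromatin behind the fork. The members were named by gene symbol, and for each gene the probe with the highest mean log2 signal over both arrays was used. All 41 members had a named probe, out of 20653 genes named on the array, and all 41 were well above background on both arrays. Of all the named genes, 16312 had a usable probe, meaning one well above background on at least 1 array.

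To compare the diets, the study took monocytic myeloid-derived suppressor cells (M-MDSCs), immature myeloid cells that restrain T cells, out of 4T1 mammary tumours of female mice labelled BABL/c. Every mouse had fasted for a day and was injected with 1000000 4T1 cells. Control mice then ate chow of 0.4% NaCl and drank tap water (normal-salt diet, NSD), and the other mice ate chow of 4% NaCl and drank water of 1% NaCl (high-salt diet, HSD), both for 16 days. Cells isolated with a magnetic MDSC kit were mixed in equal numbers within each diet, from 5 NSD mice and 6 HSD mice per the study's legend, and each mixture was hybridised to 1 one-colour (Cy3) array. Both arrays lay on the same slide. With 1 pooled array per diet there is no spread between mice and no test of the diet, so no p-value is given for any gene. In bulk RNA, fewer cells of a type and less RNA per cell cannot be told apart.

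Origins are licensed in G1, when the origin recognition complex with CDC6 and CDT1 loads the MCM2-7 ring onto DNA. In S phase CDC45 and the GINS complex turn that ring into a moving helicase, PCNA tethers the polymerases to the template, and ribonucleotide reductase supplies the deoxynucleotides. Most of these genes are known targets of E2F transcription factors, which are held back by the retinoblastoma protein family until cyclin-CDK activity releases them, and they are therefore widely read as a sign of dividing cells. Tumour MDSCs come from myeloid precursors that divide mainly in the bone marrow and spleen.

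A promoter feature that the selection of the members did not use was more frequent among them than among all genes. RefSeq promoter windows of 300 bases, with 250 bases ahead of the transcription start and 50 after it (assembly GRCm38.p6), were present for 34 of the 41 members in 39 windows. Mcm4, Gins1, Gins2, Gins4, Rfc2, Pole and Ccne2 had none. The windows were searched on both strands for the E2F-type motifs TTTCCCGC, TTTGGCGC, TTTCGCGC, TTTGCCGC, GGCGGGAA and GGCGCGAA, which overlap each other at some positions. At least 1 of these motifs lay in the windows of 18 of the 34 members (52.9%). Among all 12958 genes with a usable probe and a window the share was 7.34%, and among all 27025 genes with a window it was 4.87%. The NF-Y motif CCAAT lay in the windows of 61.8% of the members and of 42.4% of the genes with a usable probe. The CHR motif TTTGAA, known from genes of late cell cycle phases, lay in 11.8% of the members' genes and in 15.9% of the genes with a usable probe. The members' windows had a median GC content of 61.3%, against 58.7% for the genes with a usable probe. A motif match is a description of the letters and was not measured as a bound site.

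Stretches of 6 members are shown because they hold an E2F-type motif ahead of the start in genes whose expression results differ. The log2 fold changes (HSD minus NSD) of these 6 ran from -0.0032 (Mcm6) to 0.53 (Mcm5). Orc1, at -0.11 the lowest of the 18 members with a motif, is not shown. The capitals mark the E2F-type motifs, and each stretch reads 5′ to 3′ on the strand of its gene. They lie at chr8:75109331-75109392 (Mcm5, plus strand), chr1:128359717-128359777 (Mcm6, minus strand), chr11:98907988-98908045 (Cdc6, plus strand), chr10:128015175-128015214 (Prim1, plus strand), chr7:102441603-102441660 (Rrm1, plus strand) and chr17:56040344-56040401 (Chaf1a, plus strand).
Mcm5: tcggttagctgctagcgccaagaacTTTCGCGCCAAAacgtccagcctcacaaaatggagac
Mcm6: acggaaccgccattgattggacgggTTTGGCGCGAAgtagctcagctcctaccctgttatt
Cdc6: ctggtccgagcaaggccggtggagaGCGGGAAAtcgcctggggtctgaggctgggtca
Prim1: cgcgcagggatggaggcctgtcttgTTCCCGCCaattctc
Rrm1: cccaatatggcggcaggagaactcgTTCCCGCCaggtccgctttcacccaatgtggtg
Chaf1a: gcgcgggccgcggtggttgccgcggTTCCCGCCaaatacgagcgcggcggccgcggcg

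The 18 members held 33 motif matches between base -185 and base 41 relative to the start, and 21 of these matches in 13 genes lay wholly ahead of it. In the stretches shown, several of the searched motifs overlapped within a single short run in Mcm5 and Mcm6, whereas Cdc6, Prim1, Rrm1 and Chaf1a held a single match. Mcm6 had a further run of overlapping matches, not shown, with matches that began at bases -110, -107 and -106.

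**Figure D1:**
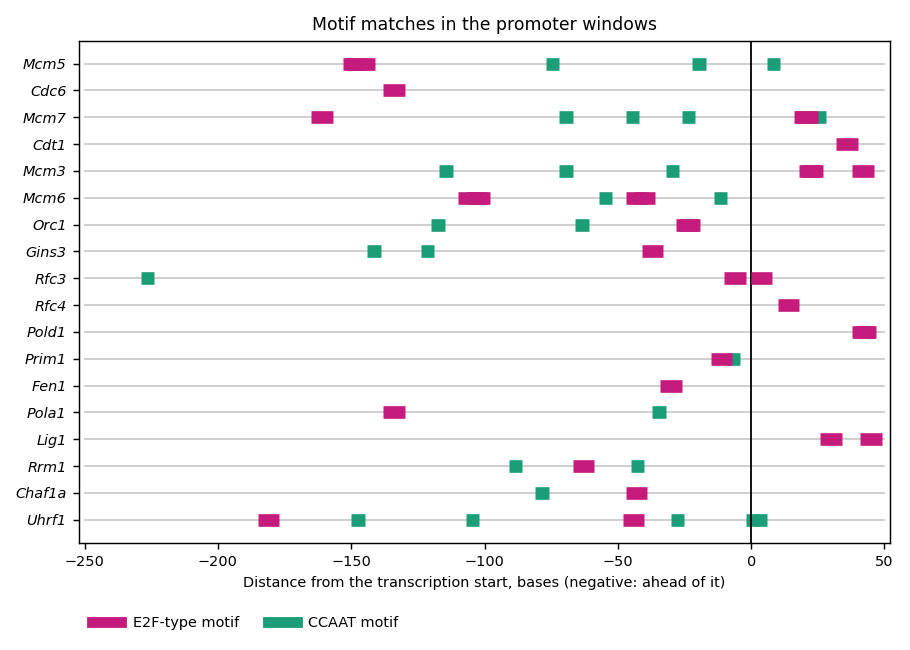
Positions of the E2F-type motifs (pink) and of CCAAT (green) in the promoter windows of the 18 members with an E2F-type motif; the x axis is the distance from the transcription start in bases, drawn from 250 bases ahead of it to 50 after it. Matches in 13 genes lay wholly ahead of the start, and Cdt1, Mcm3, Rfc4, Pold1 and Lig1 had matches only after it. Uhrf1 and Mcm7 had matches in windows at different starts, which are drawn on the same line, each from its own start.

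As a group, the 41 genes differed little between the diets. Log2 fold changes were taken as HSD minus NSD, after the 75th percentile of each array (252 intensity units for NSD, 233 for HSD) was brought to the same level. Where a pair of signals is given, the NSD pool comes first, and a value in parentheses after it is the log2 fold change. The median over the members was 0.11, with quartiles of -0.031 and 0.37, and the median over all usable genes was 0.05. Of the members, 27 lay above 0 and 14 below. Before scaling, 20 members had a higher signal on the HSD array and 21 a lower one. A gene was counted as called at a fold change of at least 1.5. Only 1 of 41 members (2.44%), Pola2, was at least 1.5-fold higher in the HSD pool, while 9.86% of all usable genes were. None of the members was at least 1.5-fold lower, against 10.3% of all usable genes.

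The members' differences were small beside those of all usable genes and of genes within the members' signal range. Their median absolute log2 fold change was 0.16, against 0.28 for all usable genes and 0.27 for the 10936 genes whose signal lay within the members' range. Brightness was not matched within this range. Under a signal of 50 lay 6 members, against 5226 of the 15209 genes well above background on both arrays. At a lower threshold of 1.2-fold, chosen after the values were seen, 14 of the 41 members were higher. This was a larger share than the 28.6% of all usable genes, whereas 0 members were lower, against 24.2%. The scanner software gives an error for each spot, at about 10.0% of the signal here, and the error of a log2 fold change of a member was between 0.20 and 0.23. By more than 2 such errors, 8 of the 41 members (19.5%) were higher, against 15% of all usable genes, and 0 were lower, against 14.2%. The 8 were Mcm5, Mcm10, Cdc6, Pola2, Tk1, Rpa2, E2f1 and Chaf1a. The differences of 23 members lay within 1 error. This error covers the measurement on the array and not the mice. The plot of all genes shows the members in a narrow band around 0.

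**Figure D2:**
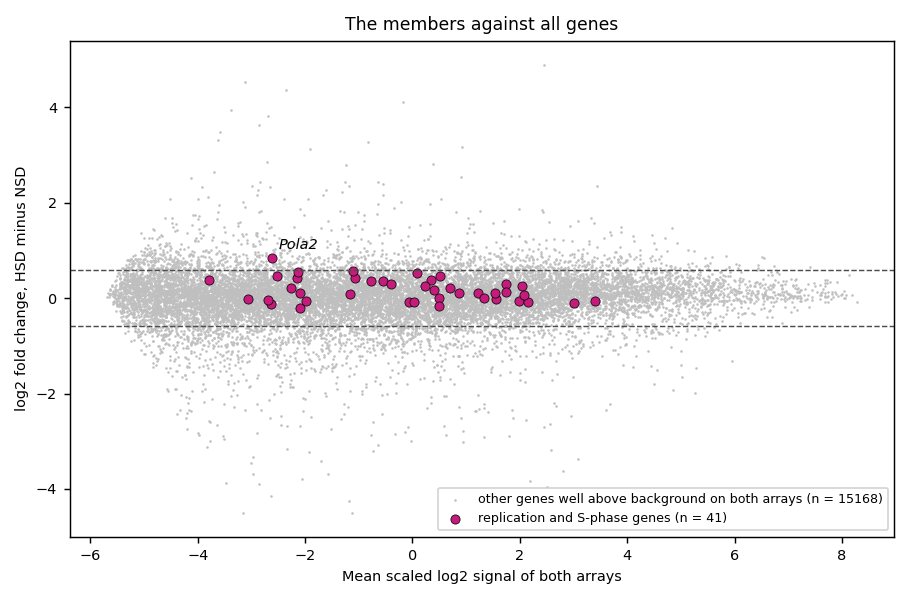
Log2 fold change (HSD minus NSD, y axis) against the mean scaled log2 signal of both arrays (x axis) for the 41 members (pink) and the other genes well above background on both arrays (grey); dashed lines mark 1.5-fold. Pola2 is the only member outside the dashed lines, and the members range from -0.21 to 0.83.

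The subunits of the licensed helicase had values from -0.025 to 0.53. All 6 subunits of the MCM2-7 ring, which unwinds DNA ahead of the fork, had signals well above background. Mcm5 had a signal of 223 in the NSD pool and 297 in the HSD pool, a log2 fold change of 0.53. Mcm2 had 130 in the NSD pool and 156 in the HSD pool, a log2 fold change of 0.37. Mcm7 had 759 and 856, a log2 fold change of 0.29. These 3 subunits were higher in the HSD pool by more than 1 software error, and Mcm5 by more than 2. The values of the other 3 subunits lay within 1 software error of 0. Mcm3 had 564 in the NSD pool and 562 in the HSD pool (log2 fold change 0.11). Mcm6 had 638 and 588 (-0.0032), and Mcm4 had 745 and 677 (-0.025). Before scaling, the signals of these 3 genes were slightly lower in the HSD pool, as was the 75th percentile of that array. Mcm5 and Mcm6, whose promoters both carry overlapping E2F-type motifs, thus had values of 0.53 and -0.0032.

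Among the loading factors, Cdc6, the ATPase that joins the origin recognition complex to load MCM, had a signal of 49.3 in the NSD pool and 60.9 in the HSD pool, a log2 fold change of 0.42. A second, dimmer Cdc6 probe was not well above background in the NSD pool and had a signal of 7.58 in the HSD pool, at least 1.78-fold higher. Cdt1, the partner of CDC6 in loading, had 948 and 1048 (log2 fold change 0.26). Of the origin recognition complex, which marks the origins, Orc6 had 313 and 325 (0.17) and Orc1 had 42.1 and 35.9 (-0.11). Over the 10 genes of MCM loading the median was 0.21, with 7 genes above 0, and under the other processing settings this median ranged from 0.15 to 0.22.

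Activation of the helicase showed almost no difference, with a median of -0.021 over 6 genes that took either sign under the other settings. Mcm10, which helps to set the assembled helicase in motion, stood apart. Its signal was 104 in the NSD pool and 128 in the HSD pool, a log2 fold change of 0.41. Cdc45, the helicase cofactor, had 39.5 and 35.7 (log2 fold change -0.031). The GINS subunits, which bind the MCM ring together with CDC45, did not move as a set. Gins1 had 63.6 in the NSD pool and 50.9 in the HSD pool (-0.21), the lowest value among the members. Gins2 had 30.3 and 27.8 (-0.012), Gins3 had 2709 and 2413 (-0.053), and Gins4 had 707 and 699 (0.099). The differences of all 4 GINS subunits lay within 1 software error.

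PCNA, the ring that holds polymerases on the template and a common marker of proliferating cells, had a signal of 2088 in the NSD pool and 1805 in the HSD pool. After scaling this was a log2 fold change of -0.096, within 1 software error. The 5 subunits of replication factor C, which opens and loads the PCNA ring, lay between -0.081 (Rfc4) and 0.22 (Rfc3). Rfc1, the large subunit, had 1014 and 905 (-0.051). Rfc2 had 446 and 443 (0.11), and Rfc5 had 355 and 328 (0.0014). The second probe of Rfc4 had 56.0 and 63.5, a log2 fold change of 0.30, against 249 and 218 at the brighter probe, so the 2 probes differed in sign. Rfc3 had 48.9 in the NSD pool and 52.7 in the HSD pool.

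Replication protein A coats the single-stranded DNA that the helicase leaves behind. The values of its subunits Rpa2 and Rpa1 lay on different sides of 0, but only that of Rpa2 exceeded the software error. Rpa2 had a signal of 96.3 in the NSD pool and 132 in the HSD pool, a log2 fold change of 0.56 and the second highest among the members. Rpa1, the large DNA-binding subunit, had 376 and 310 (log2 fold change -0.16, within 1 software error). Over the 8 genes of the clamp, its loader and RPA the median was -0.025, with 4 genes above 0 and 4 below, and its sign changed under other settings.

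Pola2, the accessory subunit of DNA polymerase alpha, which begins every new strand together with primase, was the only member called. Its signal was 30.7 in the NSD pool and 50.6 in the HSD pool, a 1.78-fold difference and a log2 fold change of 0.83 with a software error of 0.21. It was measured by 1 probe with 1 spot per array, among the dimmest of the members. With the normexp background correction, which adds an offset that shrinks differences of dim spots, its log2 fold change was 0.37, and it was then not called. The partners of Pola2 in the same complex had smaller differences. Pola1, the catalytic subunit, had 65.6 and 57.9 (log2 fold change -0.066), and Prim1, the catalytic primase subunit, had 153 and 180 (0.35). No E2F-type, CCAAT or TTTGAA motif lay in the promoter window of Pola2.

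Of the polymerases that extend the strands, Pold1, the catalytic subunit of the polymerase of the lagging strand, had a signal of 279 in the NSD pool and 337 in the HSD pool, a log2 fold change of 0.39. Pole, that of the leading strand, had 109 and 107 (0.088), and 15.0 and 17.6 (0.34) at its second probe. The enzymes that finish Okazaki fragments were level. Fen1, the flap endonuclease, had 807 and 810 (log2 fold change 0.12), and Lig1, the ligase that seals the nicks, had 1160 and 1011 (-0.084).

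Deoxynucleotide supply showed small differences above 0 in all 4 genes. Tk1, the cytosolic thymidine kinase of S phase, had a signal of 306 in the NSD pool and 388 in the HSD pool, a log2 fold change of 0.46. Rrm1, the large subunit of ribonucleotide reductase, had 271 and 298 (log2 fold change 0.25). Rrm2, the subunit whose level limits the enzyme in S phase, had 1042 and 1001 (0.056), and Tyms, thymidylate synthase, had 56.7 and 56.2 (0.10). Tk1 thus differed by more than 2 software errors, and Rrm2 and Tyms by less than 1.

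The G1/S regulators among the members had the highest median of the 7 roles, 0.38 over 3 genes. E2f1, the transcription factor that switches on much of the S-phase programme, had a signal of 47.5 in the NSD pool and 64.2 in the HSD pool, a log2 fold change of 0.55. Ccne1 and Ccne2 encode the E cyclins, which activate CDK2 at the start of S phase. Ccne1 had 173 and 196 (log2 fold change 0.29), and a second, dimmer Ccne1 probe had 10.5 and 15.3 (0.66). Ccne2, with the lowest signals of the members, had 15.9 in the NSD pool and 19.1 in the HSD pool (0.38). This median ranged from 0.25 to 0.47 under the other settings, but none of the 3 genes was called under any of them.

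Of the chromatin factors, CAF-1 places new histones behind the fork, and UHRF1 directs the copying of DNA methylation. Chaf1a, the large CAF-1 subunit, had a signal of 37.2 in the NSD pool and 47.3 in the HSD pool, a log2 fold change of 0.46. Chaf1b, the middle CAF-1 subunit, had 264 and 229 (-0.090), and its second probe had 131 and 117 (-0.054). Uhrf1 had 382 and 407 (log2 fold change 0.21), whereas its second probe had 9.69 and 7.0 (-0.36). Of the 6 members with 2 probes, both probes had the same sign in 4, and Rfc4 and Uhrf1 were the exceptions.

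**Figure D3:**
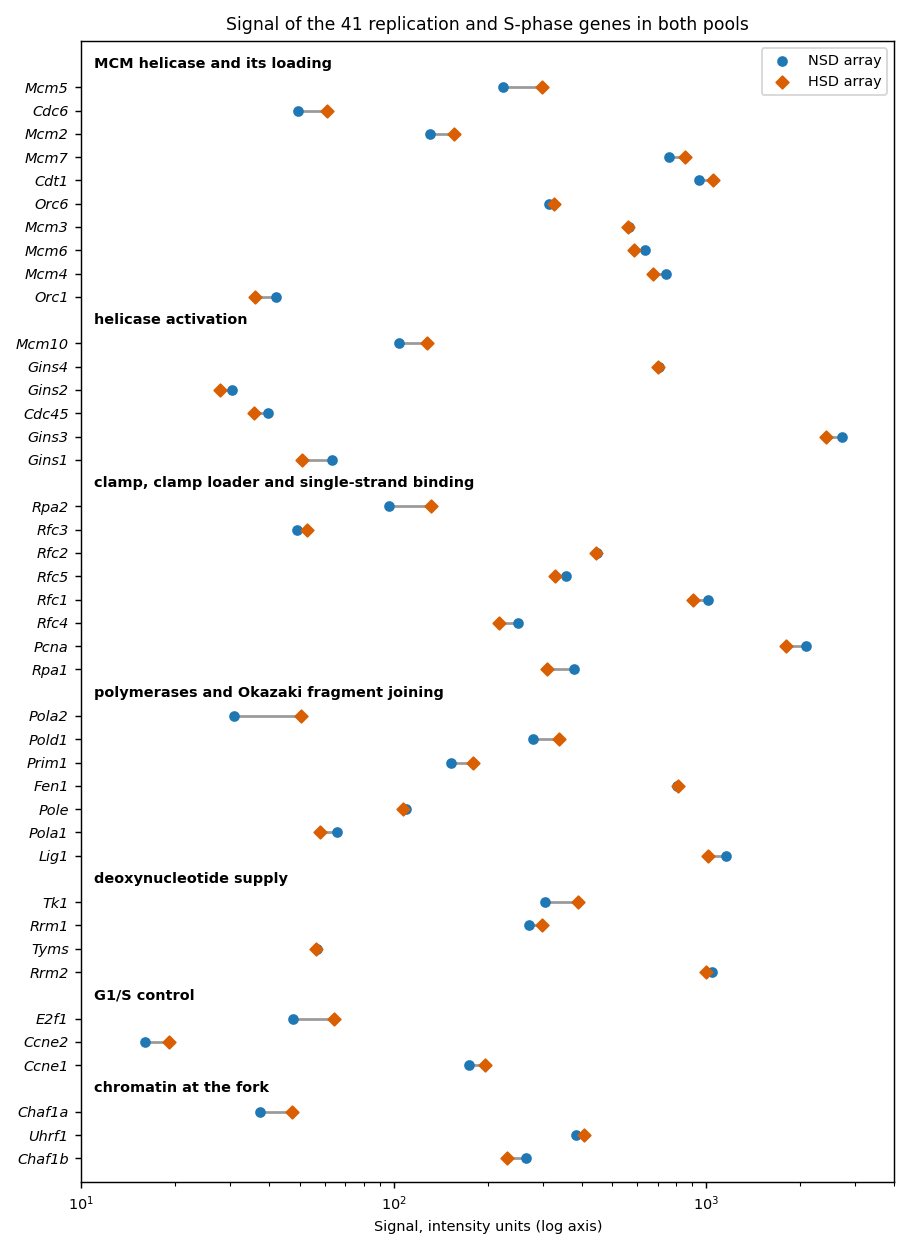
Signal of each member on the NSD array (blue circles) and on the HSD array (orange diamonds) in intensity units on a log axis, before scaling, grouped by role. The points of most genes nearly coincide, and Pola2 (30.7 and 50.6) has the widest gap. Signals of different probes are not compared with each other.

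**Figure D4:**
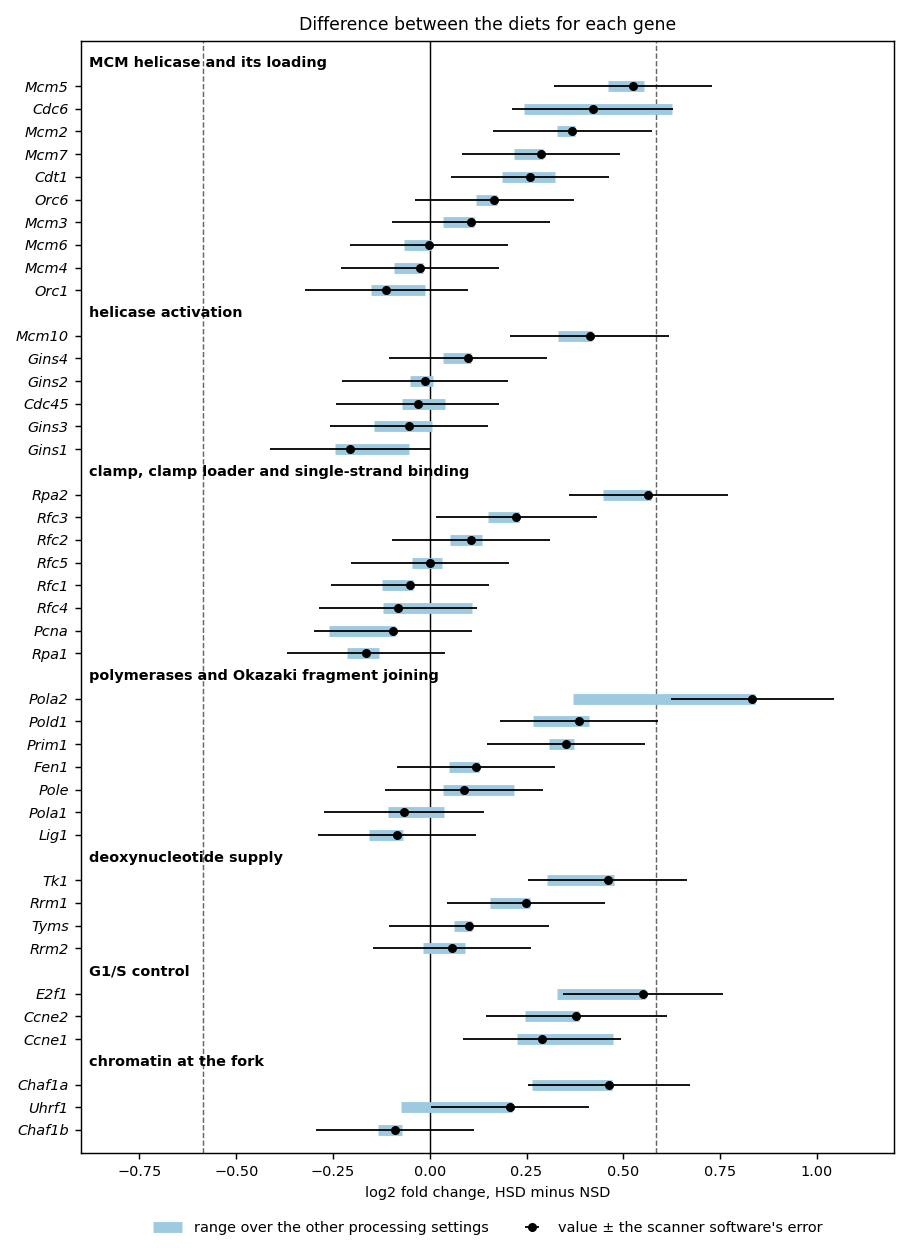
Log2 fold change of each member (HSD minus NSD, points) with the scanner software's error (thin bars) and the range over the other processing settings (blue bars); dashed lines mark 1.5-fold, and there is 1 array per diet. Pola2 lies past the dashed line at 0.83 with a range that reaches down to 0.37, and no member lies near the line on the left.

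The differences varied with the brightness of the probe. The 4 members with a mean signal over 1000 had a median log2 fold change of -0.068, and the 19 members between 200 and 1000 had a median of 0.11. The 12 members between 50 and 200 had a median of 0.32, and the 6 members under 50 a median of 0.18. Over all genes the medians of the same ranges were 0.11, 0.012, -0.0031 and 0.04. The noise of a single spot, read from probes printed in 3 or more spots, was larger at low signal. The SD of a difference between arrays from this source was 0.24 (log2) under a signal of 50, 0.11 between 50 and 200 and 0.08 between 200 and 1000. The values of Mcm5 and Tk1 thus stood on quieter signals than those of Pola2 and Chaf1a, both under 50. E2f1 lay in the range between 50 and 200.

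The 18 members with an E2F-type motif had a median log2 fold change of 0.21, from -0.11 (Orc1) to 0.53 (Mcm5). The 16 members whose windows lacked it had a median of 0.13, from -0.16 (Rpa1) to 0.83 (Pola2). These ranges overlapped almost wholly, and 7 members without a window had a median of 0.088.

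Other genes of the same processes were taken from lists written by function. Among 34 further replisome and origin genes, 2 were at least 1.5-fold higher and 2 lower in the HSD pool, with a median of 0.09. Dbf4, the activating subunit of the kinase that fires origins, had a signal of 164 in the NSD pool and 248 in the HSD pool, a log2 fold change of 0.71. Its catalytic partner Cdc7 was the other gene called higher, at the very low signals of 5.97 and 8.32, and a second Cdc7 probe had the opposite sign. The 2 lower genes encode subunits of ribonuclease H2, which removes ribonucleotides from DNA, but the subunits did not differ in the same direction. Rnaseh2b had 411 in the NSD pool and 210.0 in the HSD pool (log2 fold change -0.85), and Rnaseh2a had 184 and 113 (-0.59), a difference that the other 3 Rnaseh2a probes, between -0.13 and 0.04, did not share. The remaining subunit gene, Rnaseh2c, had 5570 and 7594 (0.56).

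The 20 further nucleotide synthesis genes had a median of -0.086. Umps, the last enzyme of pyrimidine synthesis to UMP, had 497 in the NSD pool and 299 in the HSD pool (-0.62), and Dck, the deoxycytidine kinase of nucleoside salvage, had 877 and 1192 (0.56). Of 16 genes of fork protection and the checkpoint, 15 were usable and 0 were called, with a median of 0.22. The largest differences there were those of Rad18 (0.51) and Hus1 (0.49), both higher in the HSD pool, and of Atrip (-0.49).

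The further G1/S regulators, 14 usable of 16, had a median of 0.26 with 3 genes called higher and 0 lower. These calls depended on the processing. Across the settings between 0 and 3 of these genes were called higher, and between 0 and 1 lower. Cdk2, the kinase of the E cyclins, had a signal of 316 in the NSD pool and 454 in the HSD pool, a log2 fold change of 0.63. E2f8 had 1137 and 1594 (0.60) and E2f2 had 6518 and 9113 (0.60). E2F2 is an activator of the E2F family and E2F8 a repressor. Ccna2, the cyclin of S phase and G2, had 592 and 719 (0.39) and was not called.

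Of 15 cell cycle inhibitors, 11 lay above 0 and 4 below, 2 were called higher and 0 lower, and the median was 0.18. Cdkn1a, which encodes the CDK inhibitor p21, had a signal of 67.0 in the NSD pool and 112 in the HSD pool, a log2 fold change of 0.85. Trp53, which activates Cdkn1a after DNA damage, had 14.8 and 21.0 (0.62). Cdkn1b, which encodes p27, had 5250 and 7106 (0.55), just under the threshold, and Rb1, the retinoblastoma gene, had 736 and 611 (-0.15). E2f1 and the E cyclins thus lay on the same side of 0 as Cdkn1a and Cdkn1b, whose products inhibit CDK2.

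The widest differences were found among 17 other chromatin and S-phase genes, of which 5 were called higher and 1 lower, with a median of 0.18. Msh6, a subunit of the mismatch repair complex that follows the fork, had 412 in the NSD pool and 1138 in the HSD pool, a log2 fold change of 1.58. Asf1b, a histone chaperone that hands histones to CAF-1, had 240 and 377 (0.77), and Dnmt1, the methyltransferase that UHRF1 recruits, had 271 and 415 (0.73). Slbp, which binds histone mRNAs (0.64), and Esco2, a cohesin acetyltransferase (0.64), were the other 2 called higher and were singled out after their values were seen, as were Cdc7 and Rnaseh2c. Atad2 had 16.8 and 7.63 (-1.02).

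Set beside the replication genes, the 18 mitosis genes had a median of 0.40, with 17 above 0, 5 called higher and 0 lower. Mki67, the antigen of the Ki-67 proliferation stain, had a signal of 1861 in the NSD pool and 2764 in the HSD pool, a log2 fold change of 0.69, and its second probe had 0.53. Kif11, a spindle motor, had 73.7 and 121 (0.83), and Ube2c, which works with the anaphase-promoting complex, had 491 and 709 (0.64). Top2a, the topoisomerase that untangles chromosomes, had 168 and 202 (0.38). The mitosis median ranged from 0.34 to 0.44 under the other settings, while the median of the 41 members ranged from 0.07 to 0.12. Across the settings between 2 and 5 mitosis genes were called higher. The 7 further lists together, with 133 usable genes of 136, had a median of 0.19 with 18 genes called higher and 4 lower. No test of the difference between lists was possible with 1 array per diet.

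**Figure D5:**
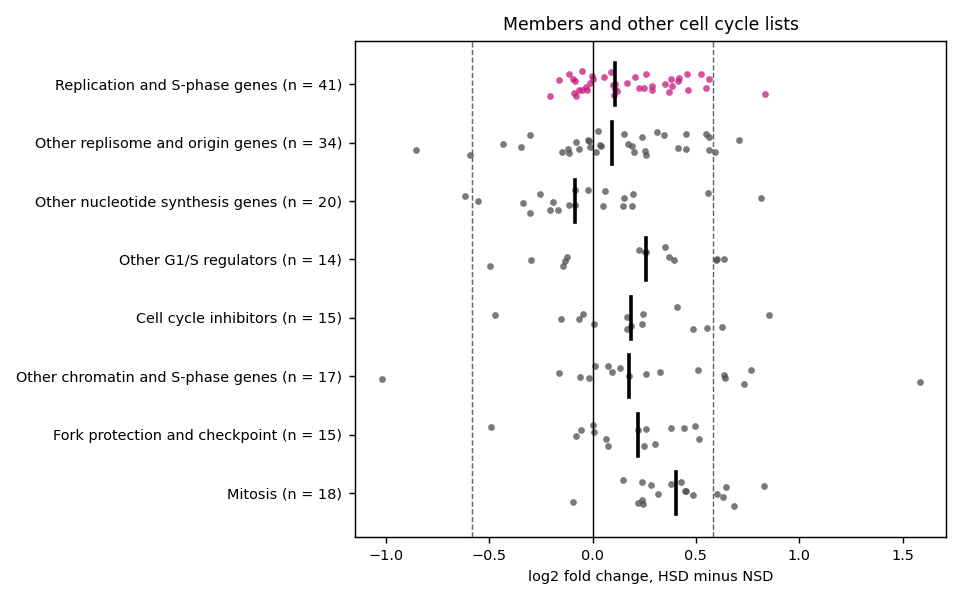
Log2 fold change (HSD minus NSD) of each gene in the 41 members and in 7 further lists, with 1 point per gene, a black bar at each list's median and dashed lines at 1.5-fold. The members' median is 0.11 and that of the mitosis genes 0.40, and the points of all lists overlap.

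The labelled cell type was checked against its markers. All 7 monocytic markers with a probe were well above background in both pools. Itgam, which encodes CD11b, had signals of 31564 and 31043, and Ly6c1 had 51811 and 48478, while Ly6c2 had no named probe. The log2 fold change was 0.47 for the pan-leukocyte marker Ptprc and -0.37 for Csf1r, the receptor of colony-stimulating factor. The dimmest markers of the list had its largest differences, in opposite directions. Ccr2 had 259 and 139 (-0.78), and Cx3cr1 had 119 and 188 (0.78). The median of the list was 0.09, with 5 genes above 0 and 2 below. Neutrophil markers were also bright, with 6 of 6 above background, signals from 1643 to 57914 in the NSD pool and from 2168 to 56478 in the HSD pool, and a median of 0.11.

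Markers of immature myeloid precursors, a stage that divides, were above background at 7 of 7 genes, and their summed signal was 8283 in the NSD pool and 5466 in the HSD pool, with a median of -0.46. Mpo had 3536 and 1723 (-0.92), and Elane 1606 and 1412 (-0.071). Of these markers 6 lay below 0, and Myb, with 1131 and 1346 (0.37), lay above it. Of the macrophage markers 6 of 6 with a probe were above background in the NSD pool and 5 in the HSD pool. Their summed signal was 14136 and 8673, and their median was -0.98. Adgre1, which encodes F4/80, had 6723 and 4252 (-0.55), and Apoe, the brightest, had 7119 and 4337 (-0.60). The values spread widely around this median. Mrc1 was lowest, with 134 and 5.49 (-4.50), and C1qb, with 50.4 and 58.4 (0.33), was the only marker above 0.

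Markers of 4T1 carcinoma cells, which divide quickly, were dim. Of 7 genes, 6 were above it in each pool with no signal over 45.0, and their summed signal was 117 in the NSD pool and 122 in the HSD pool. Epcam had 14.5 and 21.8 (0.70), and Krt8 had 8.68 and 12.2 (0.61). Cdh1, the brightest of these markers in both pools, had 45.0 and 30.8 (-0.43), and Krt14 had 24.3 and 23.5 (0.07). All 5 B-cell markers were above background in both pools and above 0, with a median of 0.40, a summed signal of 6131 and 7134, and Cd79a at 27.7 and 37.4. Of the 6 T and NK cell markers with a probe 5 were above background in each pool, their summed signal was 2674 and 2896, and their median was -0.095. Cd3e had 115 and 49.8 (-1.09), whereas Cd3d, the brightest of them, had 1501 and 1871 (0.43). Ccr2, Cx3cr1, Myb, Apoe, Mrc1, C1qb, Cdh1, Krt14 and Cd3d were also singled out after their values were seen, as were Hba-a1 and Siglech below. The remaining marker lists had medians of -0.31 (erythroid cells), 0.06 (dendritic cells) and -0.12 (fibroblasts and endothelium). Summed signals were 11133 and 11453 for the erythroid list, where Hba-a1 alone had 10273 and 10843. They were 13811 and 13302 for the dendritic list, where Siglech alone had 13705 and 13214. For fibroblasts and endothelium they were 251 and 240. The part of these cell types in the values of the replication genes was not tested.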

How the data were processed

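RNA of M-MDSCs pooled within each diet was measured on 1 Agilent one-colour array per diet. The authors deposited scanner files with a processed intensity for each spot, background-corrected by Feature Extraction 11.0.1.1, and the median intensity of the spot and its surroundings. Their deposited series table holds log2 values normalized in GeneSpring GX, with the algorithm not given in the sources used here. Both of its columns have a median of 4.61, and it served as an alternative. Flagged spots, 162 (NSD) and 179 (HSD), were left out, spots of a probe were averaged on the log2 scale, and each array was scaled by subtracting its 75th percentile. The software called 71.9% (NSD) and 72.4% (HSD) of 39413 probes well above background, and no spot was saturated. Probes were named through unversioned RefSeq transcripts (27223 of 39413); the array design used an older assembly, so gene coordinates other than those of the RefSeq promoter windows are not given. A gene not well above background on 1 array was given as a bound, its brighter value against the higher of its own dim signal and the lowest signal well above background there.

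The members and lists were chosen with earlier results of these data known. The text names all members, the 3 largest differences of each further list detected on both arrays, and a few preset genes (Mki67, Top2a, Ccna2, Cdk2, Cdkn1a, Cdkn1b, Rb1, Dnmt1 and cell type markers), except for results not reported here. Alternatives were normexp (offset 50), quantile normalization, cyclic loess, scaling on the median or on detected probes, the deposited values, both filters on dim probes, flagged spots kept, the median over a gene's probes, and other thresholds. The fold and call steps were tested on simulated data. Python 3.11.15 (numpy 2.4.6, pandas 2.3.3, matplotlib 3.10.9) and R 4.3.3 (limma 3.58.1) were used.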

Additional observations from a re-analysis of the deposited data

How the results depend on the processing

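No member was at least 1.5-fold lower in the HSD pool under any alternative run. Over all genes the share lower ranged from 4.07% (normexp) to 12.2% (cyclic loess). The members' median log2 fold change stayed between 0.07 and 0.12. The count of members at least 1.5-fold higher was 1 in the values above, against 9.86% of all genes. With the normexp background correction it was 0, against 3.85% of all genes. With the median over a gene's probes it was 2, with Cdc6 added, against 9.62% of all genes. Under the other processing alternatives it was 1, against 7.63% (cyclic loess) to 14.1% (no filter) of all genes. It was 0 at a 2-fold threshold, for which the share of all genes is not given. At a 1.2-fold threshold chosen after the values were seen it was 14, against 28.6% of all genes. Between 10 and 16 members lay below 0. The calls of the further lists also moved with the settings. Genes called higher numbered from 1 to 2 for the replisome and origin list and from 1 to 2 for the inhibitors. For the other chromatin and S-phase genes they numbered from 3 to 5. Genes called lower numbered from 1 to 3 for the replisome and origin list and from 0 to 1 for the other chromatin and S-phase genes. For the further nucleotide synthesis genes they numbered from 0 to 2, and for the inhibitors there were 0 under every setting. Of the 41 members, 24 lay above 0 and 8 below 0 under every alternative, while Mcm6, Cdc45, Gins2, Gins3, Rfc4, Rfc5, Pola1, Rrm2 and Uhrf1 changed sign under at least 1. The value moved by more than the noise between spots for 10 members with normexp and for 5 with the median over probes. Of all usable genes called, 48.9% were higher in the HSD pool, against 38.5% with cyclic loess, and the median of all genes shifted by less than 0.1 between scalings. A block for the slide could not be fitted, since both arrays shared it. The number of arrays limits the precision: every value compares a single pool per diet, each member rests on 1 spot per array, and small differences of dim genes lie within the noise of a spot.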
